A study of Bos indicus with 5 samples.

Results

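Chemokines and their receptors were described in Nelore (Bos indicus) cows, in the ampulla, the part of the oviduct in which eggs are fertilized. The genes were chosen by symbol alone, as every entry of the deposited table named as a CC, CXC, XC or CX3C chemokine or as a receptor for one, older receptor names (DARC, CXCR7, CCRL1, CCRL2) included. The rule found 51 of the 24616 entries of the table. Of these, 30 were ligands, 17 were receptors and 4 were atypical receptors, which bind chemokines without the usual signal through a G protein. A mean normalized read count over 5 was needed for testing, and 38 of the 51 passed, while 13 had too few reads. The normalized read count is the number of reads of a gene divided by a size factor for its library, and it is called normalized reads here. It is not divided by transcript length, so that levels are compared between libraries and not between genes.

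Ampulla tissue came from multiparous, non-lactating cows, and each library came from a different animal, 2 of them LF/LCL, with a large follicle and then a large corpus luteum, and 3 SF/SCL, in which both were small. Both groups were pre-synchronized with a prostaglandin F2α analog (0.5 mg sodium cloprostenol) and a GnRH agonist (1 µg buserelin acetate), and both received an intravaginal progesterone device (1 g) and 2 mg estradiol benzoate on day -10. On that day LF/LCL cows were also given the prostaglandin. The device was taken out 42 h before the GnRH injection of day 0 in LF/LCL and 30 h before it in SF/SCL, with prostaglandin at removal and again 6 h later in both groups, and tissue was taken on day 4. The sequenced cows were not a random draw, as the study took the top-ranked LF/LCL and the bottom-ranked SF/SCL animals by follicle diameter, corpus luteum area and plasma steroids. The samples covered the whole thickness of the oviduct wall on the side of the corpus luteum, and 1 further LF/LCL library was left out by the study for few reads.

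Chemokines are small secreted proteins that guide the movement of leukocytes. They bind to heptahelical receptors on the leukocyte, which signal through inhibitory G proteins to the actin skeleton, and to glycosaminoglycans that hold them on vessel walls and in the matrix. In the oviduct the mucosa holds intraepithelial T cells, macrophages and other leukocytes, and it has to tolerate sperm and an embryo while it keeps out microbes.

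The libraries held from 13418278 to 19592174 reads assigned to genes. The tissue was checked against markers of its cell types. OVGP1, the oviduct-specific glycoprotein of secretory cells, had from 117179 to 147247 normalized reads, and FOXJ1, the regulator of motile cilia, from 8481 to 12698, so both were present in each of the 5 libraries. With limma on log2(value + 1), fitted over the 15815 genes that passed the filter, 0 genes (0%) had an adjusted p under 0.05 (Benjamini-Hochberg), and 1819 genes (11.5%) had an unadjusted p under 0.05. On whole reads recovered from the values, edgeR (quasi-likelihood) called 0 genes (0%), with 1843 (11.7%) under 0.05 before adjustment, and DESeq2 called 457 (2.89%). A log2 fold change below is LF/LCL over SF/SCL on the log2(value + 1) scale, with its standard error, and p-values are two-sided.

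None of the 38 chemokine and receptor genes tested had an adjusted p under 0.05 with limma or with edgeR. An unadjusted p under 0.05 was found with edgeR for 9 of 38 (23.7%, against 11.7% of all genes). DESeq2 called 4 with its adjusted p (10.5%, against 2.89% of all genes), CXCR4, CXCL10, CXCL6 and CCL8. With limma 8 of 38 had an unadjusted p under 0.05 (21.1%, against 11.5% of all genes). Of the 8, 7 were higher in LF/LCL (CXCR4, CXCL10, CXCL14, CCL8, CCL11, CCL19 and DARC) and 1 was lower (CXCL6). Of the 1819 genes under that p among all tested, 892 were higher and 927 were lower (5.64% and 5.86% of the genes tested). The log2 fold change was positive for 26 of 38 genes, against 50.8% of all genes tested, and its median over the 38 was 0.58, against 0.01 over all genes. The groups did not overlap for 15 of 38 (39.5%), against 30.1% of all genes. In 13 of these 15 every LF/LCL library lay above every SF/SCL library, and in 2, CXCL6 and CCR4, every one lay below. Of the 4765 genes without overlap among all tested, 2371 lay above and 2394 below (15.0% and 15.1% of the genes tested). Without LF/LCL replicate 2 the median fell to 0.24, and without SF/SCL replicate 2 it was 0.26. In bulk tissue, fewer cells of a type and less RNA per cell cannot be told apart.

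**Figure D1:**
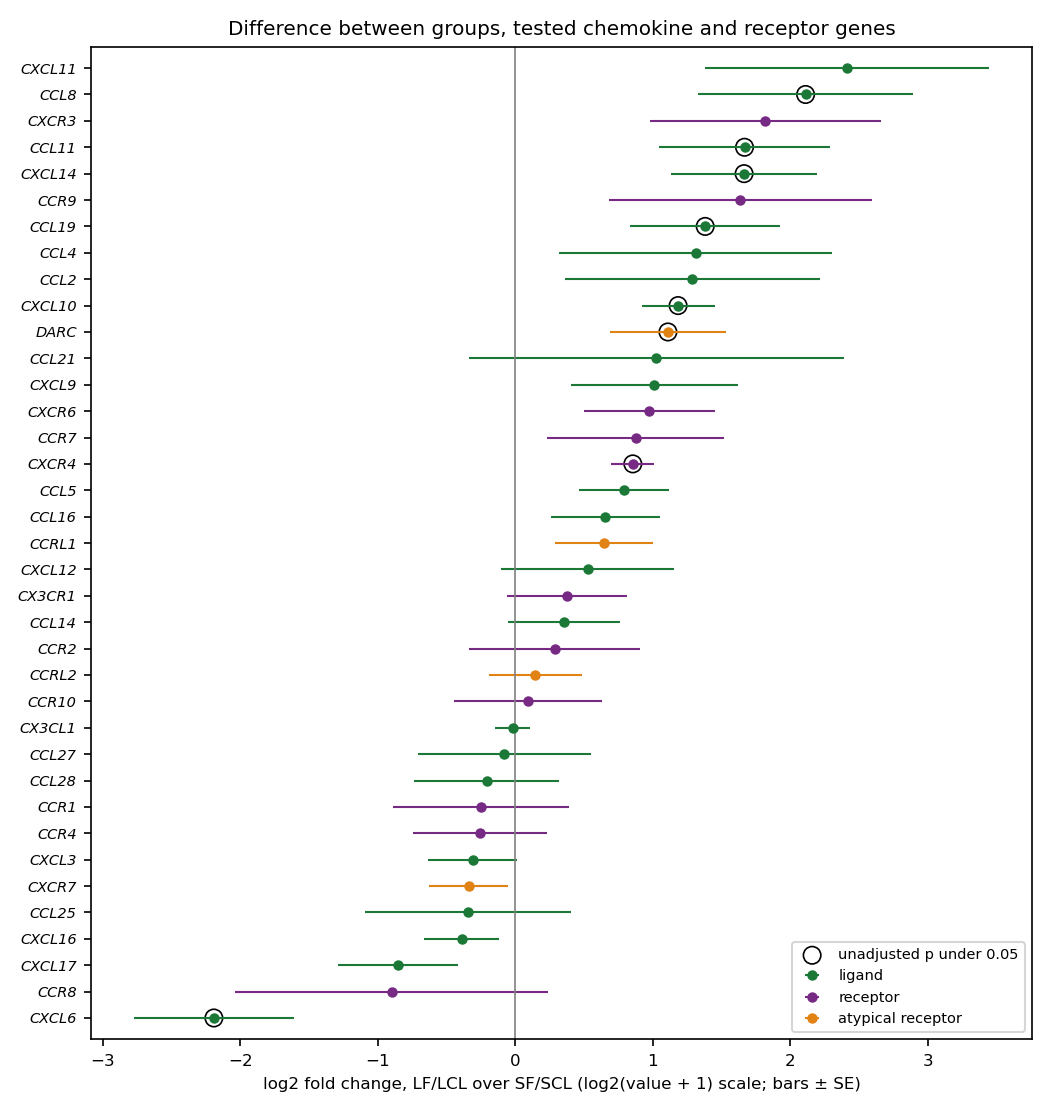
Log2 fold change (LF/LCL over SF/SCL, x axis, log2(value + 1) scale) of 37 tested genes, with bars of ± SE from limma and colours for ligands, receptors and atypical receptors. Circles mark the 8 genes with an unadjusted p under 0.05, of which CXCL6 lies furthest to the left at -2.19 and CCL8 furthest to the right at 2.11.

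CXCR4 is the receptor for CXCL12 and is carried by most leukocytes and by many other cells. It had 437 and 531 normalized reads in the LF/LCL libraries and 261, 253 and 285 in SF/SCL. Both LF/LCL values stood clear of the SF/SCL libraries, which lay close together. Its log2 fold change was 0.85 ± 0.16 (SE) with a limma p of 0.0015 and an adjusted p of 0.212, and DESeq2 gave an adjusted p of 0.00196. With each library left out in turn it ran from 0.71 to 0.99, with an unadjusted p between 0.00303 and 0.0158. CXCR4, like CXCL6, CXCL10 and CXCL14, stands in the list of differing genes that the study drew from these same libraries, so its direction is not independent evidence. The same holds for the marker genes CD3E, GZMB, IL2RG, CD52, S100A8, S100A12, KDR, PROX1 and PAX8 and for CMTM4, which are named below. For CXCR4 the study also reported qPCR on more cows than were sequenced, with greater expression in LF/LCL. Those cows were chosen by the same ranking as the sequenced ones, so they are not a separate draw. The qPCR difference in ampulla was larger than the one found here.

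CXCL12, the stromal ligand of CXCR4, showed no such separation. Its values were 2368 and 983 in LF/LCL against 1997, 529 and 1128 in SF/SCL. The groups overlapped, and the highest library of SF/SCL lay between the LF/LCL libraries. The log2 fold change was 0.52 ± 0.63 (SE), with a 95% confidence interval from -1.02 to 2.07, and it turned to -0.11 without LF/LCL replicate 1. CXCR7, now named ACKR3, an atypical receptor that takes up CXCL12 and CXCL11, had 102 and 92.0 normalized reads in LF/LCL against 102, 112 and 162 in SF/SCL, for a log2 difference of -0.34 ± 0.29 (SE). Its interval, from -1.04 to 0.36, included 0.

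CXCL14 is a chemokine made by epithelial and stromal cells in the absence of inflammation, and its receptor is not settled. It had 64.5 and 158 normalized reads in LF/LCL against 44.7, 21.0 and 32.2 in SF/SCL. There was no overlap, but LF/LCL replicate 2 held the larger part of the difference. The log2 fold change was 1.66 ± 0.53 (SE), with a limma p of 0.0193 and an adjusted p of 0.353, and it was 1.02 with a p of 0.144 without LF/LCL replicate 2.

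CXCR3 is the receptor of activated T cells and NK cells, and CXCL9, CXCL10 and CXCL11 are its ligands, all known as targets of interferon gamma. In the RefSeq gene table of another cattle assembly (NIAB-ARS_B.indTharparkar_mat_pri_1.0) the 3 ligand genes are neighbours, with at most 1 protein-coding gene between. Of the 4 genes of this axis only CXCL10 passed an unadjusted p of 0.05, and in each of the 4 both LF/LCL libraries lay above the 3 SF/SCL libraries, as they did in 15.0% of all genes tested. CXCL9 and CXCL11 are named here as an exception to the naming rule, chosen after their values were seen.

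CXCL10 had 423 and 598 normalized reads in LF/LCL against 190.3, 295 and 192 in SF/SCL. Its log2 fold change was 1.18 ± 0.27 (SE), with a limma p of 0.00411 and an adjusted p of 0.253, and DESeq2 gave an adjusted p of 0.0119. It ran from 0.93 to 1.43 across the fits without one library, with p-values from 0.00127 to 0.0356. CXCL10 and CXCR4 were the 2 members with an unadjusted p under 0.05 in each of these 5 fits.

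CXCL11 had 32.8 and 18.4 normalized reads in LF/LCL against 1.04, 16.3 and 2.15 in SF/SCL. SF/SCL replicate 2 came close to LF/LCL replicate 2, while the other 2 SF/SCL libraries held 1 and 2 reads. This gave a log2 fold change of 2.41 ± 1.03 (SE) at a p of 0.0573. CXCL9 had 36.4 and 47.4 in LF/LCL against 9.36, 26.4 and 32.2 in SF/SCL, for a log2 difference of 1.01 ± 0.61 (SE) with a p of 0.147. CXCR3 itself had few reads. Its values were 9.38 and 15.5 in LF/LCL against 2.08, 6.99 and 1.07 in SF/SCL, for a log2 difference of 1.82 ± 0.84 (SE) with a p of 0.0729. For these 3 genes the intervals included 0.

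**Figure D2:**
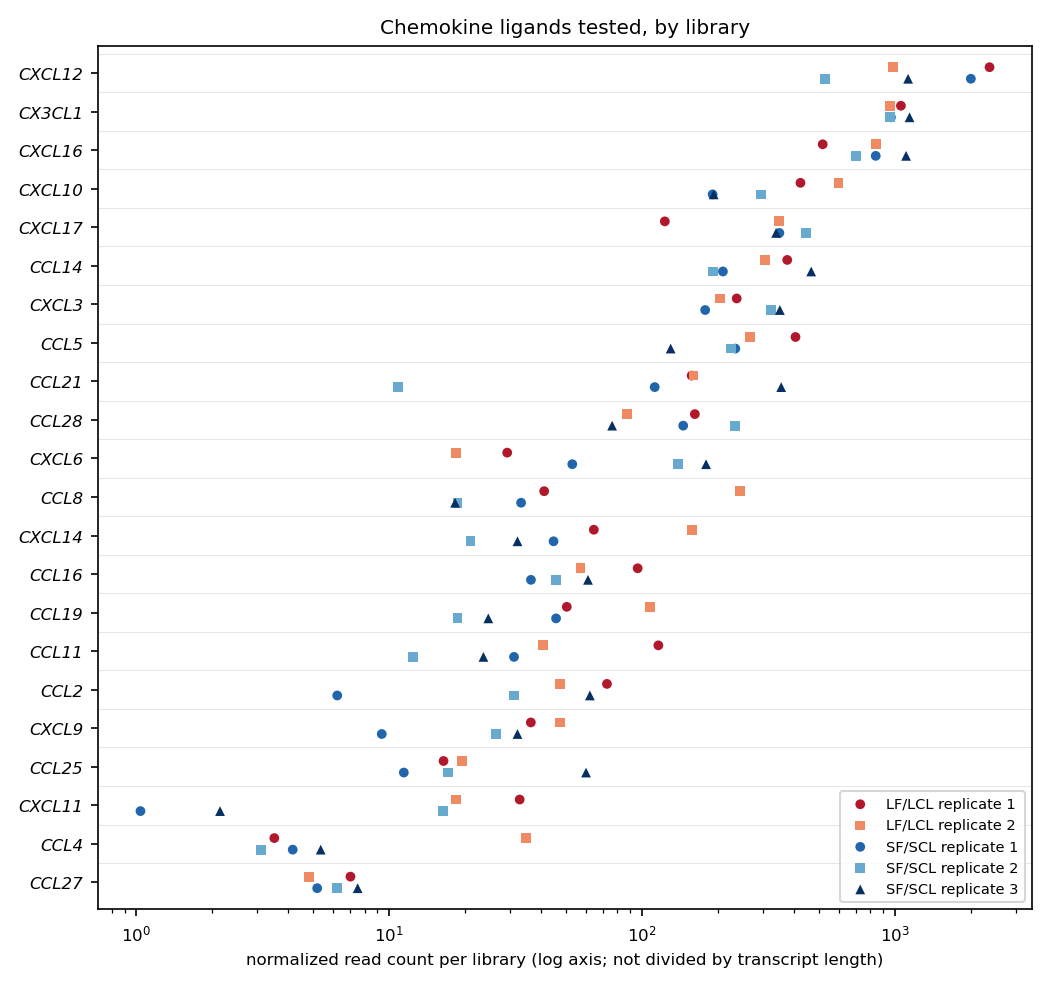
Normalized read count of the 22 tested ligands in each library (x axis, log scale, not divided by transcript length), with 1 row a gene, red tones for LF/LCL and blue tones for SF/SCL. CXCL10 and CCL8 show both LF/LCL points to the right of the SF/SCL points, CXCL6 shows them to the left, and CCL21 spans from 10.9 to 355 within SF/SCL.

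Among the inflammatory CC ligands, CCL8 and CCL11 had an unadjusted p under 0.05, each with 1 LF/LCL library well above the other. CCL8, a ligand of CCR2 and further monocyte and eosinophil receptors, had 41.0 and 244 normalized reads in LF/LCL against 33.3, 18.7 and 18.2 in SF/SCL. The log2 fold change was 2.11 ± 0.78 (SE) with a limma p of 0.0353 and an adjusted p of 0.4, and DESeq2 called it with an adjusted p of 0.0335. Without LF/LCL replicate 2 the log2 fold change was 0.84 with a p of 0.229. CCL11, also known as eotaxin, attracts eosinophils through CCR3 and had 116 and 40.7 in LF/LCL against 31.2, 12.4 and 23.6 in SF/SCL. Here LF/LCL replicate 1 was the high one, and without it the log2 fold change of 1.67 ± 0.62 (SE), whose limma p was 0.0355 and adjusted p 0.401, became 0.92 with a p of 0.245.

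CCL5, a T cell and monocyte attractant made largely by T cells, had 405 and 268 normalized reads in LF/LCL against 234, 225 and 130 in SF/SCL. No overlap was seen between the groups, and the log2 fold change of 0.79 ± 0.33 (SE) had a p of 0.0519. CCL2, the main monocyte attractant, had 72.7 and 47.4 in LF/LCL against 6.24, 31.1 and 62.2 in SF/SCL, where the range within SF/SCL was larger than the difference between the groups (log2 fold change 1.29 ± 0.93, SE). CCL16 and CCL14 had log2 fold changes of 0.65 ± 0.40 and 0.35 ± 0.41 (SE). CCL4, a macrophage inflammatory protein, had 34.8 normalized reads in LF/LCL replicate 2 and from 3.11 to 5.37 in the other 4 libraries.

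CCR2 and CCR1, receptors of these ligands, overlapped between the groups. CCR2 had 17.6 and 22.3 normalized reads in LF/LCL against 31.2, 9.33 and 14.0 in SF/SCL, for a log2 difference of 0.29 ± 0.62 (SE). CCR1 had 8.21 and 28.1 against 15.6, 16.3 and 24.7, with -0.25 ± 0.64. For each of these genes the 95% confidence interval reached past 1 in both directions on the log2 scale. CCR3, the eotaxin receptor, had from 1 to 4 reads a library and was not tested. CCR2 and CCR3 are neighbours in the RefSeq table.

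**Figure D3:**
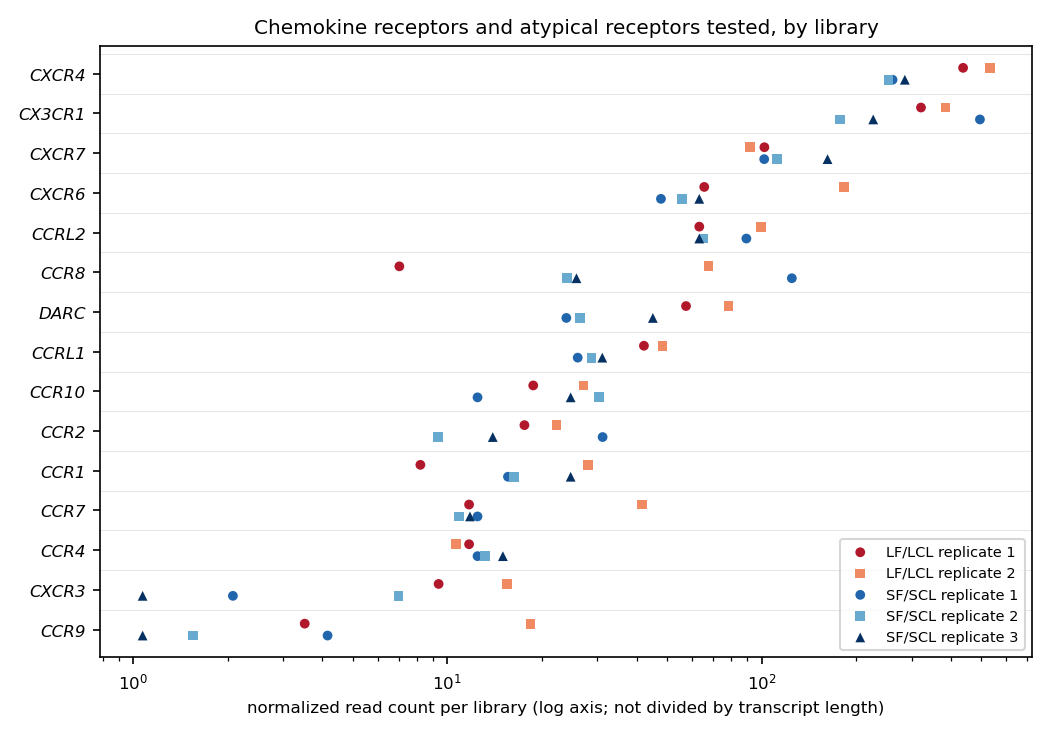
Normalized read count of 15 tested receptors and atypical receptors in each library (x axis, log scale, not divided by transcript length), with 1 row a gene, red tones for LF/LCL and blue tones for SF/SCL. Both LF/LCL points lie to the right of the SF/SCL points for CXCR4, DARC, CCRL1, CXCR6 and CXCR3, while CCR8 spans from 7.04 to 125 over the libraries.

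CCL19 and CCL21 bring T cells and dendritic cells that carry CCR7 into lymphoid tissue. CCL19 had 50.4 and 107 normalized reads in LF/LCL against 45.7, 18.7 and 24.7 in SF/SCL, for a log2 difference of 1.38 ± 0.54 (SE) with a limma p of 0.0435 and an adjusted p of 0.42. LF/LCL replicate 1 was close to SF/SCL replicate 1, and without LF/LCL replicate 2 the log2 fold change was 0.84 with a p of 0.26. CCL21, made by lymphatic endothelium, had 157 and 160 in LF/LCL against 112, 10.9 and 355 in SF/SCL. Its log2 fold change of 1.03 ± 1.36 (SE) depended on SF/SCL replicate 2, the lowest value, and was -0.33 without that library and -0.00011 with edgeR. CCR7 had 11.7 and 41.6 against 12.5, 10.9 and 11.8, so that LF/LCL replicate 2 stood alone. CCRL1, now named ACKR4, is an atypical receptor that takes up CCL19, CCL21 and CCL25, and it had 42.2 and 48.4 in LF/LCL against 26.0, 28.8 and 31.1 in SF/SCL. No overlap was seen between the groups, and the log2 fold change of 0.65 ± 0.36 (SE) had a p of 0.119.

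The remaining atypical receptors were DARC and CCRL2. DARC, now named ACKR1, binds many CC and CXC chemokines on the endothelium of venules and on red cells. It had 57.5 and 78.4 normalized reads in LF/LCL against 23.9, 26.4 and 45.1 in SF/SCL. No overlap was seen between the groups, and the log2 fold change was 1.11 ± 0.42 (SE) with a limma p of 0.039 and an adjusted p of 0.414, although the p was under 0.05 in only 1 of the 5 fits without one library. CCRL2, which presents chemerin, had 63.3 and 99.7 against 89.4, 65.3 and 63.3, a log2 fold change of 0.15 ± 0.34 (SE).

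The marker genes of endothelium went in both directions. Of 8 matched and tested, 3 had a positive and 5 a negative log2 fold change, with a median of -0.09. The 3 positive were EMCN (0.58 ± 0.39, SE), CDH5 (0.45 ± 0.45) and TEK (0.10 ± 0.38). KDR (-0.75 ± 0.16, SE) and PROX1 (-1.05 ± 0.29, SE) were lower in LF/LCL at an unadjusted p under 0.05 (25.0%, against 11.5% of all genes). The summed level of the list ran from 4779 to 7522 in LF/LCL and from 5837 to 8511 in SF/SCL. Whether endothelium took part in the DARC values was not tested. The red cell genes HBB and ALAS2 had at most 2.35 normalized reads in any library, while the 2 entries of HBA ranged widely, from 7.51 to 280.3.

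CXCL6 attracts neutrophils through CXCR1 and CXCR2, and it was the member with the lowest log2 fold change. It had 29.3 and 18.4 normalized reads in LF/LCL against 53.0, 139 and 179 in SF/SCL. No overlap was seen between the groups, and the log2 fold change was -2.19 ± 0.58 (SE) with a limma p of 0.00886 and an adjusted p of 0.306. DESeq2 gave an adjusted p of 0.00963. Across the fits without one library it ran from -2.71 to -1.84, and the p missed 0.05 only without LF/LCL replicate 2, where it was 0.0539.

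The other ligands of that kind lay closer together between the groups. CXCL3 had 237 and 203 normalized reads in LF/LCL against 178, 324 and 351 in SF/SCL, for a log2 difference of -0.31 ± 0.32 (SE). GRO1, the cattle name of a close relative that the symbol rule did not take in, had 55.1 and 40.7 against 26.0, 76.2 and 77.3, with -0.18 and a p of 0.764. These ligands belong to a family of closely related genes, and as only uniquely mapped reads were counted their values are uncertain. The 2 entries named CXCR2 had 1 and 6 reads in all 5 libraries together. The 3 neutrophil markers tested went the other way from CXCL6. S100A8 was at 38.7 and 29.0 in LF/LCL against 1.04, 0 and 2.15 in SF/SCL, and S100A12 at 244 and 241 against 59.3, 103 and 86.9. S100A9 had a log2 fold change of 0.64 ± 0.64 (SE). S100A8 and S100A12 can also be made by epithelium. The granulocyte genes CSF3R and MPO had at most 7.74 normalized reads and were under the filter. Which cells gave these values was not tested.

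Several ligands are products of mucosal epithelium. CX3CL1 (fractalkine), a membrane-bound chemokine, had the smallest standard error of the members, with 1057 and 954 normalized reads in LF/LCL against 965, 957 and 1143 in SF/SCL. Its log2 fold change was -0.02 ± 0.13 (SE), with an interval from -0.33 to 0.29. Its receptor CX3CR1, found on monocytes, macrophages and cytotoxic lymphocytes, had 321 and 384 against 495, 178 and 226, a log2 fold change of 0.37 ± 0.44 (SE). In the RefSeq table the span of CCR8 overlaps that of CX3CR1, so the values of CCR8, from 7.04 to 125, are uncertain (log2 fold change -0.90 ± 1.14, SE).

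CXCL16, a membrane-bound ligand and scavenger receptor, had 518 and 842 normalized reads in LF/LCL against 840.1, 701 and 1108 in SF/SCL, for a log2 difference of -0.39 ± 0.27 (SE). CXCR6, its receptor on resident T cells, had 65.7 and 183 against 47.8, 56.0 and 63.3. For CXCR6 the groups did not overlap, but LF/LCL replicate 1 exceeded SF/SCL replicate 3 by little, and the log2 fold change of 0.97 ± 0.47 (SE; limma p of 0.0846) was 0.24 without LF/LCL replicate 2. CXCL17, made by mucosal epithelium, had 123 and 349 against 349, 446 and 339, a log2 fold change of -0.85 ± 0.44 (SE). Here LF/LCL replicate 1 alone was low, and the difference was -0.10 without it and -1.60 without LF/LCL replicate 2.

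The pairs that guide plasma cells and gut lymphocytes to mucosa showed no difference beyond the replicate spread. CCL28 had 162 and 87.1 normalized reads in LF/LCL against 146, 234 and 76.2 in SF/SCL, and its receptor CCR10 had 18.8 and 27.1 against 12.5, 30.3 and 24.7. Their log2 fold changes were -0.21 ± 0.52 and 0.09 ± 0.54 (SE). CCL25 was at 60.1 in SF/SCL replicate 3 and from 11.4 to 19.4 elsewhere, and its receptor CCR9 was at 18.4 in LF/LCL replicate 2 and from 1.07 to 4.16 elsewhere. CCL27, another ligand of CCR10, had a log2 fold change of -0.08 ± 0.63 (SE). CCR4, a receptor of helper and regulatory T cells, had 11.7 and 10.6 in LF/LCL against 12.5, 13.2 and 15.0 in SF/SCL, so that the groups did not overlap although they differed by less than the error (log2 fold change -0.26 ± 0.49, SE).

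Of the 13 members that did not pass the filter, CCL1 had 0 reads in the 5 libraries, which allows up to 3 reads in each, or from 2.33 to 3.52 normalized reads. CCL17 had 6 reads, all of them in SF/SCL replicate 3. CCL3, CCL20, CCL22, CCL24, CXCL13, XCL1, CCR3, CCR6, XCR1 and both CXCR2 entries had from 1 to 21 reads over the 5 libraries together. XCL1 and its receptor XCR1, the pair that links NK and CD8 T cells to cross-presenting dendritic cells, had 9 and 21 reads. With so few reads, no difference is read from these genes, although both LF/LCL libraries lay above SF/SCL in CCL20, CXCL13 and CCR6 and below it in CCL3, which had 1 and 2 reads against 6, 4 and 6.

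Within LF/LCL the libraries differed widely for many chemokine genes. LF/LCL replicate 2 exceeded replicate 1 by 1 or more on the log2(value + 1) scale in 11 of 38 members (28.9%), against 6.01% of all genes tested. Among these were the ligands CCL4, CCL8, CCL19, CXCL14 and CXCL17 and the leukocyte receptors CCR1, CCR7, CCR8, CCR9 and CXCR6. Replicate 1 exceeded replicate 2 by as much in 2 members (5.26%), CCL11 and CXCL12, against 5.43% of all genes. Of the 7 members higher in LF/LCL at an unadjusted p under 0.05, CXCR4, CXCL10 and DARC differed by less than 1 between the LF/LCL libraries. The smooth muscle and stroma marker lists were also highest in LF/LCL replicate 1, with summed levels of 106467 and 71761 normalized reads, against 53367 and 29064 in replicate 2. Whether these cell types took part in the CCL11 and CXCL12 values was not tested.

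**Figure D4:**
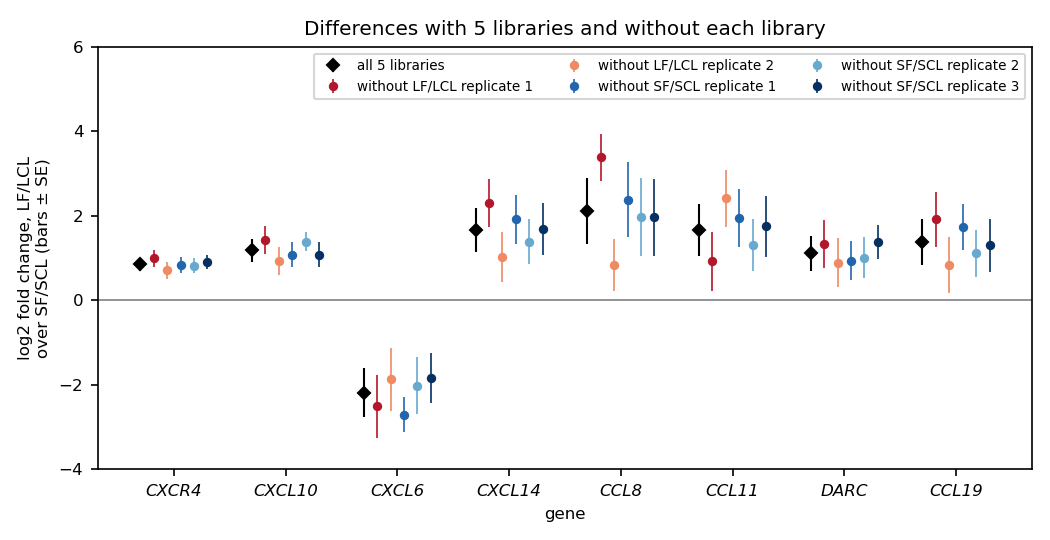
Log2 fold change (LF/LCL over SF/SCL, y axis, ± SE) of the 8 members with an unadjusted p under 0.05, from all 5 libraries (black diamonds) and from fits without 1 library each (coloured points). Every point kept the sign of its gene, and CCL8 was at 0.84 when LF/LCL replicate 2 was left out and at 3.38 when replicate 1 was.

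Leukocyte markers were read beside these values because leukocytes carry the receptors and make many of the ligands. The 12 tested entries of the T and NK cell list all had a positive log2 fold change, with a median of 0.78, and 5 had an unadjusted p under 0.05 (41.7%, against 11.5% of all genes and 5.64% in this direction). Its summed level was 1434 and 1616 normalized reads in LF/LCL against 775, 1097 and 907 in SF/SCL, so the groups did not overlap. CD3E, a chain of the T cell receptor complex, had a log2 fold change of 0.85 ± 0.23 (SE), CD3D of 1.08 ± 0.35 and GZMB (ENSBTAG00000039813) of 1.62 ± 0.49, while CD3G, CD2 and CD4 were at 0.39 ± 0.31, 0.33 ± 0.29 and 0.32 ± 0.71. The 7 pan-leukocyte markers were also positive, with a median of 0.68. IL2RG (1.10 ± 0.24, SE), CD52 (0.96 ± 0.29) and PTPRC (0.44 ± 0.18) had an unadjusted p under 0.05 (42.9%, against 11.5% of all genes). The sum of the 7 was 5778 and 7721 in LF/LCL and from 3612 to 5796 in SF/SCL, which overlapped. 0 of these marker genes had a limma adjusted p under 0.05. The part of T and NK cells in the values of CXCR4, CXCL10, CXCR3, CCL5 and CXCR6 was not tested.

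The summed levels of the macrophage, dendritic cell and B and plasma cell lists overlapped between the groups. Of the monocyte and macrophage list, 4 of 7 were positive, with a median of 0.23 and sums of 1421 and 2272 in LF/LCL and from 852 to 2188 in SF/SCL. The 4 dendritic cell markers were negative, with a median of -0.35, and 4 of 5 markers of B and plasma cells were positive, with a median of 0.27. None of these 16 entries had an unadjusted p under 0.05, against 11.5% of all genes. The groups did not overlap in 2 of the 16, CD68 (lower in both LF/LCL libraries) and CD79A (higher), against 30.1% of all genes. MARCO, a macrophage receptor, had at most 1.17 normalized reads, and MS4A1 (CD20 of B cells) from 0 to 11.6, both under the filter. Of 3 mast cell markers tested, 2 were positive, and of 3 mesothelial markers 0 were, again with no p under 0.05. The smooth muscle markers were higher in LF/LCL (6 of 6, median 1.64) and the ciliated cell markers were lower (6 of 6, median -0.63). All 6 of each list had an unadjusted p under 0.05 (100%, against 5.64% and 5.86% of all genes in those directions). In all 6 of each the groups did not overlap (100%, against 15.0% and 15.1%). The part of these cell types in the chemokine values was not tested. Of the secretory markers, 4 of 5 were positive, with a median of 0.23, and PAX8 (0.62 ± 0.15, SE) and EPCAM (0.40 ± 0.16) were higher in LF/LCL at an unadjusted p under 0.05, while in 3 of 5 the groups did not overlap. Of the stroma markers 5 of 6 were positive, with a median of 0.63 and 0 at an unadjusted p under 0.05, against 11.5% of all genes.

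**Figure D5:**
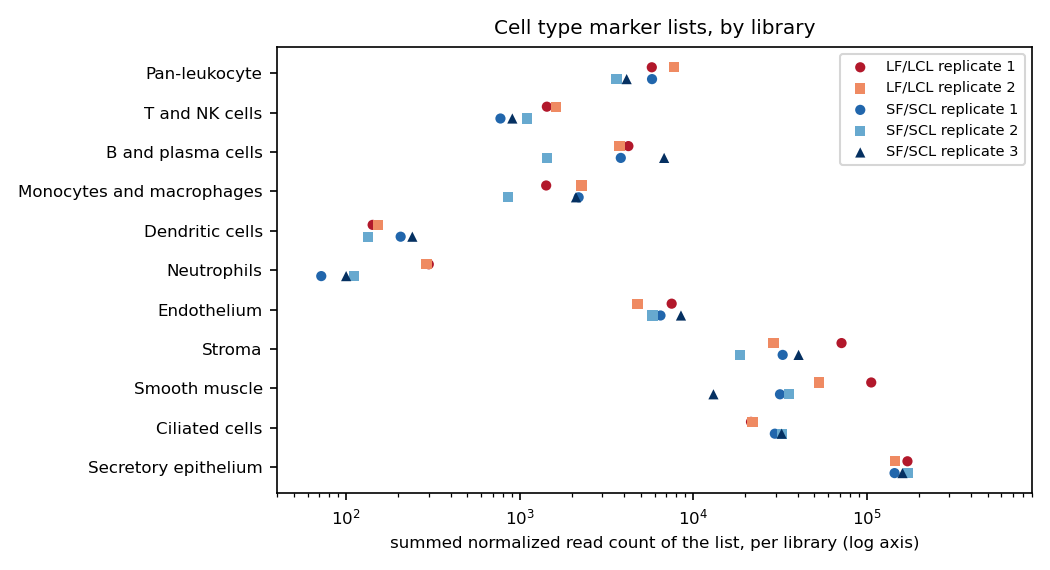
Summed normalized read count of 11 cell type marker lists in each library (x axis, log scale), with red tones for LF/LCL and blue tones for SF/SCL. The T and NK cell, neutrophil and smooth muscle lists show both LF/LCL points to the right of the SF/SCL points and the ciliated cell list shows them to the left, while the pan-leukocyte, B and plasma cell, macrophage and dendritic cell lists overlap.

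Below the receptors, 46 entries of signal transduction genes were tested. An unadjusted p under 0.05 was found for 12 (26.1%, against 11.5% of all genes), 10 higher and 2 lower in LF/LCL, with a median log2 fold change of 0.29 over the list. The smallest p-values belonged to the G protein gamma subunits GNG11 (ENSBTAG00000000820; 4059 ± 1166 normalized reads in LF/LCL and 1527 ± 215 in SF/SCL, SD, n = 2 and 3) and GNG10 (3280 ± 124 and 1988 ± 221), and to TIAM1, an activator of RAC1, which was lower in LF/LCL (530.5 ± 65.8 and 842 ± 16.2). Their limma adjusted p-values were 0.178, 0.193 and 0.212. Also higher in LF/LCL were GNAI2, the inhibitory alpha subunit that most chemokine receptors use, ELMO1, VAV1, PAK1, PTK2B and RAC2, and the receptor kinase ADRBK2 was lower. GNAI2, GNG10, GNG11, ELMO1, VAV1, PAK1 and TIAM1 stand in the study's own list for these libraries, so they are not independent evidence. This list, like the others, was written with earlier results of these data known, so its share of 26.1% is not independent evidence either. The 2 entries of GNG11, both counted among the 12, had similar values in each library and may not be independent of each other.

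Of the genes that cleave or hold chemokines, 12 were tested and 3 had an unadjusted p under 0.05 (25.0%, against 11.5% of all genes). GPC1, a heparan sulfate proteoglycan, was higher in LF/LCL (0.60 ± 0.18, SE), and SDC4, another one (-0.47 ± 0.14), and DPP4, the protease that trims the amino terminus of CXCL10, CXCL11 and CXCL12 (-0.81 ± 0.32), were lower. DPP4 had 57.5 and 84.2 normalized reads in LF/LCL against 112, 161 and 103 in SF/SCL, which did not overlap. Of the 15 tested entries of leukocyte adhesion genes, 12 had a positive log2 fold change. The median was 0.34, and 0 had an unadjusted p under 0.05, against 11.5% of all genes. Among the smallest p-values there were those of VCAM1 (ENSBTAG00000037539; 0.77 ± 0.37, SE) and SELP (0.57 ± 0.30).

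Among 13 tested relatives of the family outside the symbol rule, 2 had an unadjusted p under 0.05 (15.4%, against 11.5% of all genes), a share near that of all genes. CMTM4 (-0.60 ± 0.16, SE) and CMTM3 (-0.40 ± 0.13), chemokine-like membrane proteins, were lower in LF/LCL, and CMTM6 of the same family had a log2 fold change of 0.21 ± 0.10 (SE). MIF, a cytokine that also binds CXCR4, had 2462 and 2920 normalized reads in LF/LCL against 2797, 2013 and 1998 in SF/SCL, and RARRES2 (chemerin) had 1611 and 1515 against 1586, 1431 and 1803. The groups overlapped in both. CCBP2, now named ACKR2, an atypical receptor for inflammatory CC chemokines, had 34.0 and 52.3 against 23.9, 59.1 and 53.7 (log2 fold change -0.01).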

How the data were processed

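The deposited table holds, per the labels and the methods of the study, reads of polyA TruSeq libraries sequenced in pairs, cleaned with seqyClean, aligned with TopHat2 2.0.8 and Bowtie2 2.1.0 to the masked UMD 3.1 assembly, counted per gene with HTSeq 0.5.4p2 when mapped uniquely and without ambiguity, and divided by a DESeq 1.12.1 size factor. Strand use in counting is not given in the sources used here, so overlapping and antisense genes are uncertain. The deposited unit is thus a normalized signal. Each of the 5 columns carried the title of 1 sample.

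Values were whole multiples of 1 step per library, so that 100% of the nonzero values could be turned back into whole reads (within 0.001 plus 1e-06 of the value). Totals ran from 13418278 to 19592174 reads, which limits the precision of genes with few reads, and floors for 0 reads cover counting error only. Libraries of the same group differed far beyond counting noise (mean chi-square per gene from 30.9 to 45.7), so each counted as 1 replicate. The 2 LF/LCL libraries differed from each other by 40.7, and from SF/SCL replicate 1 by 39.1 and 40.3. Against SF/SCL replicates 2 and 3 the LF/LCL libraries differed by 57.1 to 74.3. The labels name separate animals and no batch. Replicate numbers follow accession order and pair no samples.

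limma 3.58.1 (R 4.3.3) was fitted to log2(value + 1) with trend and robust estimation for the 15815 genes with a mean over 5, without covariates, with Benjamini-Hochberg adjustment over these genes (threshold 0.05). edgeR 4.0.16 (quasi-likelihood, TMM) and DESeq2 1.42.0 were run on the recovered reads as alternatives. Other alternatives were the scaling, the pseudocount, the filter, plain variance estimation and each library left out. Without an LF/LCL library the remaining one is assumed to vary like the others. The fits were also run on simulated data with the same spread set for every gene. This does not show how they behave at the spread of these libraries. Named with values in every library were members with an unadjusted p under 0.05 and the 5 ligands and 5 receptors with the most normalized reads. So were CXCR4, CXCL12, CXCR7, CXCL10, CXCR3 and CXCL14, and partners of those named for their p. In the other lists the 3 genes with the smallest p were not always named, and several named genes have a log2 fold change only. Further members and genes were named so that each member is accounted for, a choice made after their values were seen. The members and all lists were chosen with earlier results of these data known. Of the 50 member symbols, 41 were matched in the RefSeq table of another assembly, which served for names and neighbours only, and no coordinates are given. Some genes are not reported here by name or in the figures, although the counts include them.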

Additional observations from a re-analysis of the deposited data

How the results depend on the processing

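No paired analysis was possible because the replicate numbers follow accession order and the labels pair no cows.

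With DESeq2 the count of members with an adjusted p under 0.05 went from 0 to 4 and that of all genes from 0 to 457. No other alternative called a gene. The count of members with an unadjusted p under 0.05 ran from 6 to 10 over the fits without one library, with 4 to 8 higher and 1 to 2 lower in LF/LCL, where 7.8 to 10.5% of all genes had such a p. The 4 came without LF/LCL replicate 2 (CCL5, CCL11, CXCL10 and CXCR4), which then also had CXCL16 and CXCL17 lower, and not CXCL6. The median log2 fold change of the members ran from 0.24 to 0.71 over these fits. The members with both LF/LCL libraries below SF/SCL were 1 under a filter of mean over 20, because CCR4 left, and 2 to 6 of 38 without one library, where 20.6 to 28.1% of all genes lay below. Those above were 13 to 19, where 20.5 to 29.0% of all genes lay above.

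The sign of 25 of the 38 members was kept under every alternative run. CCL21 went to -0.00011 with edgeR and -0.0064 with DESeq2. Over the fits without one library the signs of 13 turned, and among these the ranges were -0.109 to 1.16 for CXCL12, -2.45 to 0.648 for CCR8, -1.08 to 0.578 for CCR1, -0.653 to 0.233 for CCL28, -0.178 to 0.468 for CCRL2, -0.312 to 0.149 for CCL27, -0.267 to 0.345 for CCR10, -0.0934 to 0.0632 for CX3CL1, -0.183 to 2.80 for CCL4, -0.334 to 2.12 for CCL21, -0.0771 to 0.743 for CCR2 and -0.82 to 0.328 for CCL25. The cause was not tested. The median over all genes moved by less than 0.1 under each scaling.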
